A study of Drosophila melanogaster with 6 samples.

Results

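The 6 arrays, hybridized with RNA of whole adult Canton-S or D18 flies, fell into 2 kinds by the genes of the reproductive tracts. Canton-S replicate 3 and D18 replicate 2 were male-type: the mean log2 value of the seminal fluid genes Acp26Aa, Acp36DE and Acp62F lay above that of the yolk protein genes Yp1, Yp2 and Yp3. Canton-S replicates 1 and 2 and D18 replicates 1 and 3 were female-type, with the reverse order. The sample labels give no sex, so 2 of 6 arrays were called male-type and 4 of 6 female-type from measured values alone. Differences between the kinds are therefore described with their standard error (SE) and were not tested, since the arrays were selected on values of the same hybridizations.

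Both strains are wild type laboratory stocks of Drosophila melanogaster, with no transgene or mutation named and no treatment, and each held 1 male-type and 2 female-type arrays. The flies were 3 days old by the labels and 2 to 3 days old by the methods, and RNA came from pools of whole flies. The methods describe flies of both sexes for every pool, and the labels do not say which flies an array holds. The names male-type and female-type stand for the order of the marker genes on an array and not for a known sex.

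In the male fly, the testis makes sperm under a spermatocyte program of transcription, and the accessory glands, ejaculatory duct and ejaculatory bulb make the seminal fluid. In the female, yolk proteins from fat body and follicle cells enter the oocyte, nurse cells load it with maternal RNA, and follicle cells lay down the vitelline membrane and chorion. Somatic sex follows Sxl, tra and the sex-specific splicing of dsx and fru. A whole-fly array adds all these tissues together, and more or fewer cells of a type cannot be told apart from more or less RNA per cell.

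The sorting markers were far apart on every array. The 3 seminal fluid genes averaged 11.58 in male-type Canton-S and 10.94 in male-type D18, against 2.86 and 2.74 on Canton-S replicates 1 and 2 and 2.94 and 2.80 on D18 replicates 1 and 3. The 3 yolk protein genes averaged 4.92 in male-type Canton-S and 4.35 in male-type D18, against 12.71 and 13.18 on the female-type Canton-S arrays and 13.13 and 13.31 on the female-type D18 arrays. The array nearest to the change of order on the male-type side was D18 replicate 2, where seminal fluid minus yolk protein was 6.59, and on the female-type side it was Canton-S replicate 1, where it was -9.85. No array lay in between. The lower quartile of an array was 2.96 to 3.01 on the male-type arrays and 2.96 to 3.09 on the female-type arrays, so values of about 2 to 3 are dim, and differences against them depend on the lower end of the scale. In the lists below, values within a kind are given for Canton-S before D18, with replicates in rising number.

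Of 18769 probe sets, 2472 were male-high (13.2%), which means a strain-adjusted log2 difference (male-type minus female-type) of at least 1 with both male-type arrays above all 4 female-type arrays. A further 3156 were female-high (16.8%), with a difference of -1 or lower and both male-type arrays below all 4 female-type arrays. Among 8344 probe sets with a mean level of at least 6, 1850 were similar (22.2%), with a difference under 0.5 in size within each strain. The count of similar probe sets was 3225 without D18 replicate 2, where the limit applied within Canton-S alone and was thus looser. With 1 probe set per gene, 2182 of 11982 genes were male-high (18.2%), 2662 were female-high (22.2%) and 1519 of 7028 were similar (21.6%). These shares of all genes stand beside the list counts below. The similar share covers only genes with a mean level of at least 6, while list counts are out of all measured members. The share of male-high among the male-high and female-high probe sets was 43.9% as deposited, and 24.8% with every array set to the same median. That setting put the median difference over all probe sets at -0.80, beside -0.33 as deposited.

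Male-high genes differed by more than female-high genes. At least 8-fold differences were found for 1516 male-high and 359 female-high probe sets, and at least 64-fold differences for 449 and 57. The median difference was 3.90 for male-high and -1.60 for female-high probe sets, beside -0.33 for all. Male-high probe sets were in part dim where they were low. Their median level was 7.93 on the male-type arrays and 3.27 on the female-type arrays. The female-type mean was under 3 for 1013 of them (41.0%). Female-high probe sets had a median level of 5.84 on the male-type arrays and 7.79 on the female-type arrays, and the male-type mean was under 3 for 212 of them (6.72%).

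**Figure D1:**
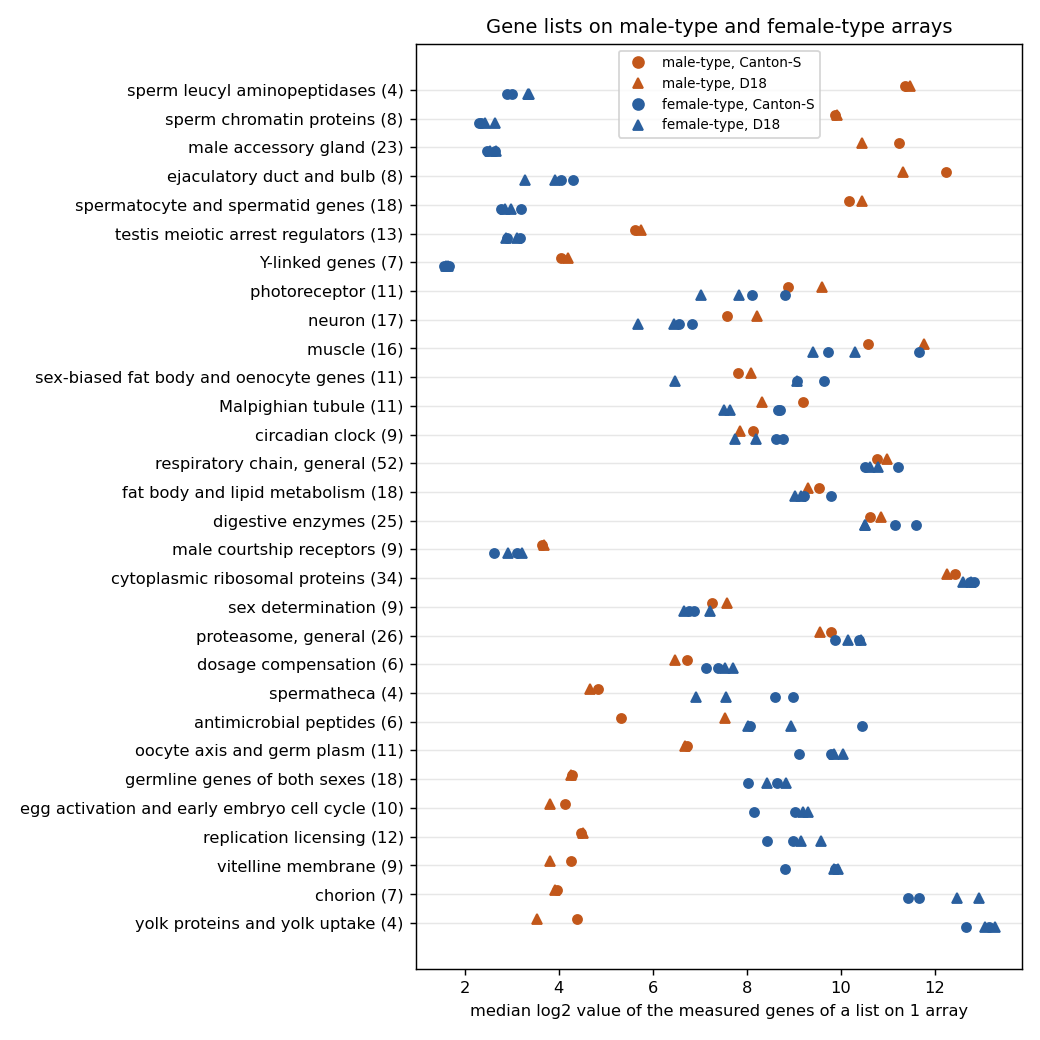
Median log2 value of each gene list on each of the 6 arrays (circles Canton-S, triangles D18; male-type in orange above female-type in blue), with the number of measured genes in parentheses, ordered by the difference between the kinds. Testis and seminal fluid lists lie to the right on the male-type arrays, yolk, eggshell and replication lists on the female-type arrays, and the respiratory chain list lies between 10.52 and 11.22 on all 6.

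Seminal fluid genes were among the widest male-high genes. Of 23 measured genes of the male accessory gland, 22 were male-high, with a median difference of 7.66, but 3 of these are sorting markers. Without those, 19 of 20 were male-high, with a median of 7.51, and 18.2% of all genes were male-high. Acp26Aa, the ovulation-stimulating protein ovulin and a sorting marker, had 11.40 and 10.46 on the male-type arrays, against 1.94, 1.83, 1.93 and 1.73 on the female-type arrays, a difference of 9.07 ± 0.27 (SE; n = 2 and 4, as for every SE that follows). Acp36DE, needed for sperm storage and also a marker, had 11.95 and 11.62 on the male-type arrays, against 2.48, 2.46, 3.00 and 2.53 on the female-type arrays. SP, the sex peptide that lowers the receptivity of mated females, had 12.05 and 11.43 on the male-type arrays, against 2.21, 2.25, 2.58 and 2.29 on the female-type arrays. Canton-S replicate 3 was above D18 replicate 2 for each of these 3 genes, and the kinds did not overlap. The smaller seminal proteins Acp53Ea, Acp53C14a, Acp53C14b, Acp63F and Acp98AB had differences of 9.90 to 10.50. Acp95EF was the exception in the list, with 4.19 and 4.17 on the male-type arrays and 4.26, 4.29, 4.10 and 4.01 on the female-type arrays.

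The ejaculatory duct and bulb gave the widest single difference. EbpII, a protein of the ejaculatory bulb, had 12.40 and 12.26 on the male-type arrays, against 1.93, 1.91, 1.88 and 1.50 on the female-type arrays, a difference of 10.52 ± 0.14. Ebp, another protein of the bulb, differed by 10.37 ± 0.22, and Dup99B, a relative of the sex peptide from the duct, by 9.18 ± 0.32. Of the 8 measured genes of this list, 6 were male-high. Obp56e had 6.53 and 9.50 on the male-type arrays and 8.62, 7.81, 8.14 and 8.20 on the female-type arrays, so the male-type arrays lay on either side of the female-type ones.

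Genes of late spermatogenesis were male-high with few exceptions. Of 18 measured spermatocyte and spermatid genes, 16 were male-high, with a median difference of 7.21. The testis gene ocn had 12.22 and 12.35 on the male-type arrays, against 2.20, 2.17, 2.42 and 2.13 on the female-type arrays. Mst84Da, a small protein of the sperm tail, had 11.37 and 11.43 on the male-type arrays, against 1.99, 2.05, 2.23 and 2.25 on the female-type arrays. The male-type arrays lay close together for both genes. They lay far apart for dj, a sperm tail gene with 6.94 on the male-type Canton-S array and 10.17 on the male-type D18 array, against 2.76, 2.05, 2.09 and 1.73 on the female-type arrays. bol, a translation factor of meiosis, was male-high from a higher base, with 10.52 and 10.41 on the male-type arrays, against 6.14, 5.42, 5.86 and 5.82 on the female-type arrays.

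One gene of this list was female-high. twe, the Cdc25 phosphatase that germ cells of both sexes use in meiosis, had 4.71 and 5.69 on the male-type arrays, against 6.50, 7.96, 8.23 and 8.70 on the female-type arrays, a difference of -2.64 ± 0.55. All 8 genes of sperm chromatin were male-high, with a median of 7.88. Mst77F, which takes part in packing the sperm nucleus, had 11.35 and 11.93 on the male-type arrays, against 3.35, 3.15, 3.67 and 3.50 on the female-type arrays. The 4 measured leucyl aminopeptidases of sperm, S-Lap2, S-Lap5, S-Lap7 and S-Lap8, were male-high too, by 5.51 to 8.58.

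The listed regulators of the spermatocyte program were less far apart than the listed spermatocyte and spermatid genes. Which of those genes they act on was not tested. Of 13 meiotic arrest genes, 10 were male-high, with a median difference of 2.28. The testis TAF gene Taf12L had the widest difference, with 7.51 and 7.61 on the male-type arrays, against 2.90, 3.18, 2.58 and 2.60 on the female-type arrays. vis, a homeodomain factor, had 5.87 and 6.64 on the male-type arrays, against 1.87, 2.14, 2.50 and 2.36 on the female-type arrays. Its near copy achi had 5.0 and 5.21 on the male-type arrays and 4.75, 5.34, 4.83 and 5.46 on the female-type arrays, which overlapped. Because achi and vis are close copies, how their probes share signal was not tested. aly stayed near the lower end on all arrays, at 2.35 and 2.07 on the male-type arrays and 1.77, 2.25, 1.82 and 1.84 on the female-type arrays.

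Y-linked genes can be transcribed only in flies with a Y chromosome. All 7 measured ones were male-high, with a median difference of 2.02 at low levels. ARY had 6.19 and 6.51 on the male-type arrays, against 1.66, 1.56, 1.45 and 1.56 on the female-type arrays. The dynein heavy chain gene kl-3, one of the fertility factors, had 3.37 and 3.81 on the male-type arrays, against 1.78, 1.40, 1.49 and 1.63 on the female-type arrays. The narrowest was kl-5, another dynein heavy chain, at 2.56 and 2.65 on the male-type arrays, against 1.45, 1.61, 1.73 and 1.50 on the female-type arrays.

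Yolk and chorion genes were among the widest female-high genes. Yp1, a yolk protein and sorting marker, had 4.69 and 3.56 on the male-type arrays, against 12.80, 13.25, 12.88 and 13.38 on the female-type arrays, a difference of -8.95 ± 0.43. Yp3, also a marker, had 5.97 and 5.96 on the male-type arrays, against 12.73, 13.26, 13.26 and 13.24 on the female-type arrays. yl, the oocyte receptor for yolk, had 2.71 and 2.49 on the male-type arrays, against 9.81, 10.55, 10.34 and 10.56 on the female-type arrays. All 4 genes of this list were female-high, with a median of -8.33, which the sorting fixed for the 3 yolk protein genes and leaves yl, at -7.71, as the only other member. Of all genes, 22.2% were female-high.

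All 7 chorion genes were female-high, with a median of -7.48. Cp36 had 3.81 and 3.64 on the male-type arrays, against 12.17, 11.92, 13.15 and 12.71 on the female-type arrays. Cp7Fc had 2.55 and 2.64 on the male-type arrays, against 9.80, 8.86, 11.39 and 9.95 on the female-type arrays. Each of the 7 was highest on D18 replicate 1 among the female-type arrays. Of 9 vitelline membrane genes, 8 were female-high. Vm26Aa had 4.35 and 3.82 on the male-type arrays, against 11.20, 12.54, 13.23 and 12.98 on the female-type arrays. Canton-S replicate 1 was the lowest female-type array for Vm26Aa, Vm26Ac, Vm32E, Vm34Ca and psd. The exception to the group was tsl, the terminal patterning gene, with 8.22 and 6.95 on the male-type arrays and 8.70, 7.39, 7.61 and 7.17 on the female-type arrays.

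Maternal RNAs of the oocyte were female-high in part. Of 11 genes of oocyte axis and germ plasm, 7 were female-high, with a median of -2.99. osk, which builds the germ plasm, had the widest female-high difference of all, -9.72 ± 0.31, with 1.90 and 2.05 on the male-type arrays, against 11.30, 11.85, 11.47 and 12.14 on the female-type arrays. orb, a translational regulator of oocyte RNAs, differed by -8.13 ± 0.34, and bcd, the anterior determinant, by -7.53 ± 0.38. The transport genes stau and egl differed by -0.76 ± 0.31 and -0.82 ± 0.13, under the 2-fold limit. grk, the ligand that sets the axes of the egg, had 6.82 and 6.72 on the male-type arrays, against 7.73, 7.83, 7.52 and 7.96 on the female-type arrays, a difference of -0.99.

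Cell cycle genes of the egg and early embryo were female-high without exception. All 10 measured genes of egg activation and the early cell cycle were female-high, with a median of -4.44. CycB, a mitotic cyclin, had 4.97 and 5.14 on the male-type arrays, against 11.37, 12.12, 12.14 and 12.27 on the female-type arrays. gnu, a subunit of the kinase that starts embryonic mitoses, had 3.35 and 3.51 on the male-type arrays, against 9.75, 10.24, 10.88 and 10.34 on the female-type arrays. All 12 replication licensing and synthesis genes were female-high as well, with a median of -4.54. The helicase subunit Mcm5 had 3.51 and 3.73 on the male-type arrays, against 8.82, 9.19, 9.81 and 9.27 on the female-type arrays. PCNA, the sliding clamp, had 6.07 and 5.75 on the male-type arrays, against 9.47, 10.13, 10.58 and 10.13 on the female-type arrays.

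Germline genes that act in both sexes were mostly female-high. Of 18 measured genes, 16 were female-high and 1 male-high, and the median was -3.74. otu, an ovarian tumour gene, had 2.51 and 2.25 on the male-type arrays, against 9.72, 10.68, 10.77 and 11.06 on the female-type arrays. piwi, an Argonaute that silences transposons, had 3.23 and 2.92 on the male-type arrays, against 8.36, 9.20, 8.88 and 8.75 on the female-type arrays. AGO3 and aub, of the same pathway, differed by -3.38 ± 0.28 and -3.70 ± 0.42. The differentiation genes bam and bgcn, whose proteins act together in the germline, went opposite ways. bam had 3.33 and 3.43 on the male-type arrays, against 6.62, 7.96, 8.20 and 7.59 on the female-type arrays. bgcn had 6.85 and 8.49 on the male-type arrays, against 3.74, 3.82, 3.73 and 3.25 on the female-type arrays, a difference of 4.03 ± 0.58. The similar gene of the list was tud, a germ plasm scaffold, with 9.73 and 9.85 on the male-type arrays and 9.68, 9.98, 9.52 and 9.62 on the female-type arrays.

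Copies of general genes that were listed as restricted to few tissues, mostly the testis, separated from their partners. Of 43 listed pairs, 31 had both genes measured. The restricted gene was male-high in 26 of 31 pairs, with a median difference of 4.10. The name comes from the listing, and some of these genes were not low on the female-type arrays, where the mean was 12.93 for sesB, 9.98 for Mpcp1, 9.31 for eIF4G2, 8.51 for Hsc70-1 and 5.90 for mia. Of the 29 general partners, 8 were female-high, 12 were similar and 1 was male-high, with a median of -0.72. betaTub85D, the tubulin of the sperm tail, had 11.21 and 11.57 on the male-type arrays, against 2.99, 2.61, 2.39 and 2.77 on the female-type arrays. Its partner betaTub56D, the general beta tubulin, had 10.81 and 10.83 on the male-type arrays, against 11.35, 12.02, 12.00 and 12.08 on the female-type arrays. In the respiratory chain, the cytochrome oxidase copy COX4L had 10.40 and 10.57 on the male-type arrays, against 2.55, 2.58, 2.32 and 2.54 on the female-type arrays, while COX4 differed by 0.02. The copies COX5BL, COX6AL and COX7AL differed by 6.50, 5.37 and 7.87, and their partners COX5B, levy and COX7A by -0.02, 0.04 and -0.25.

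In the proteasome, 9 of 10 restricted copies were male-high, from 3.09 for Prosbeta2R1 to 5.45 for Prosalpha6T, and the partners differed by -0.33 to -1.15. Prosbeta4R2 was the exception, with a difference of 0.74 at a male-type mean of 3.12. The testis TAF genes can, nht, sa and Taf12L differed by 2.75 to 4.74, and the partners Taf5, Taf4, Taf8 and Taf12 by -0.50 to -1.97. mia, the fifth, differed by 0.67 and was not male-high. For mitochondrial import, tomboy20 and tomboy40 differed by 6.71 and 5.39, against -0.34 and -1.47 for Tom20 and Tom40. For translation, eIF4E3 differed by 6.22, against -0.90 for eIF4E1. sesB and Ant2, neighbouring genes for the mitochondrial ADP/ATP carrier, went the other way from the listing: Ant2, entered as the general gene, had 9.26 and 9.32 on the male-type arrays, against 5.77, 5.70, 5.51 and 5.08 on the female-type arrays, and sesB differed by 0.24 ± 0.38.

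**Figure D2:**
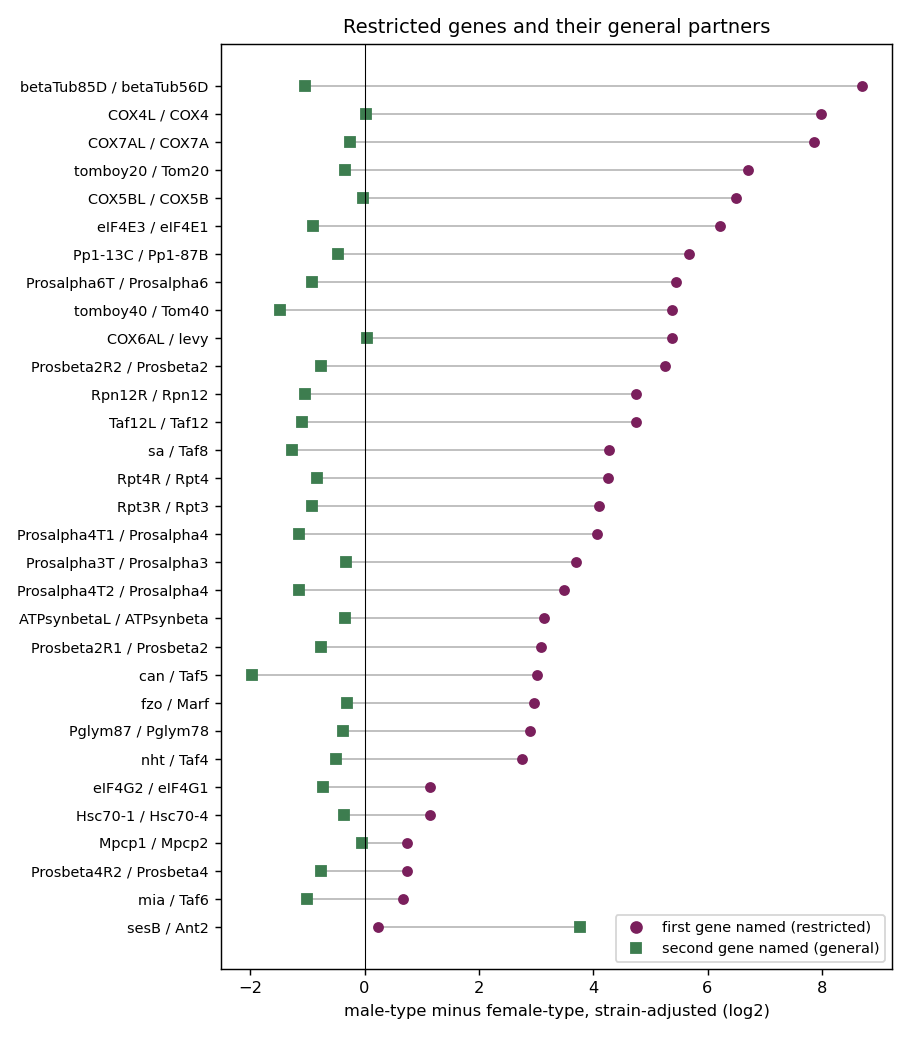
Strain-adjusted log2 difference, male-type minus female-type, of 31 genes listed as restricted (purple circles) and their general partners (green squares), joined pair by pair and ordered by the restricted gene. The gene listed as restricted lies to the right of its partner in 30 of 31 pairs, and sesB with Ant2 is the exception.

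General cell functions differed from each other in how even they were. Of 52 nuclear genes of the general respiratory chain, 40 were similar, 1 was male-high and none was female-high, beside 18.2% and 22.2% of all genes, and the median was 0.06, or -0.403 with every array set to the same median. The male-high one was ND-B8, with 7.52 and 7.51 on the male-type arrays, against 7.45, 4.47, 6.65 and 7.08 on the female-type arrays, where Canton-S replicate 2 stood apart. Of 34 cytoplasmic ribosomal protein genes, 18 were similar, 2 male-high and 2 female-high, with a median of -0.37, or -0.832 with every array set to the same median. RpL10Aa had 9.86 and 8.89 on the male-type arrays, against 3.34, 3.59, 3.38 and 3.58 on the female-type arrays, while RpL10Ab differed by -0.19. RpS19b had 8.39 and 8.52 on the male-type arrays, against 4.23, 4.66, 3.64 and 3.68 on the female-type arrays. RpS5b was female-high, with 8.29 and 8.18 on the male-type arrays, against 12.12, 12.50, 12.51 and 12.44 on the female-type arrays. The 26 general proteasome genes had a median of -0.56, or -1.02 with every array set to the same median, with 25 of them lower on the male-type arrays and 2 female-high, Prosalpha4 and Rpn12.

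Of 9 measured sex determination genes, 1 was male-high, dsx, and 2 were female-high, ix and fl(2)d, shares not far from the 18.2% and 22.2% of all genes. Sxl had 8.18 and 8.02 on the male-type arrays and 8.46, 8.86, 7.93 and 8.84 on the female-type arrays, which overlapped. tra, the splicing regulator below Sxl, had 6.79 and 7.14 on the male-type arrays, against 8.17, 7.82, 7.91 and 7.76 on the female-type arrays, a difference of -0.95 ± 0.20. fru, a transcription factor of male courtship, had 7.27 and 7.57 on the male-type arrays, against 6.87, 6.53, 6.19 and 6.29 on the female-type arrays, a difference of 0.95 ± 0.25. ix, a partner of the female form of dsx, was female-high by -1.74 ± 0.29. Both tra and fru separated the kinds and lay just under the 2-fold limit.

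In dosage compensation, msl-2, which is translated only in males, had 7.25 and 6.59 on the male-type arrays, against 6.25, 6.20, 5.55 and 5.99 on the female-type arrays. Its partners msl-1 and mof were female-high, by -1.74 ± 0.15 and -1.49 ± 0.29. mle, the helicase of the complex, had 8.02 and 6.76 on the male-type arrays and 8.04, 8.71, 6.65 and 7.12 on the female-type arrays, which followed the strain more than the kind. All these differences stood beside a median of -0.33 over all probe sets.

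The probe sets of dsx pointed in both directions. This gene, the last switch of somatic sex, is spliced into a male and a female form with different 3' exons. The dsx probe set 1640799_at had 8.97 and 8.44 on the male-type arrays, against 5.98, 5.80, 5.35 and 5.98 on the female-type arrays, a difference of 2.93 ± 0.25. The dsx probe set 1623776_s_at had 3.98 and 2.68 on the male-type arrays, against 7.90, 7.54, 6.78 and 7.29 on the female-type arrays, a difference of -4.05 ± 0.28. Neither probe set overlapped between the kinds. Which exon each probe set reads was not determined here, since no probe positions were used.

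Of 1094 genes with at least 2 probe sets, 7 had male-high and female-high probe sets together, and these were chosen after their values were seen. mud, a spindle protein, had a difference of 4.54 for probe set 1624624_at and of -3.19 for 1628717_a_at. dlg1, a scaffold of cell polarity, had 1.0 for 1635382_at and -3.0 for 1627882_at, and its probe set 1624021_a_at differed by -0.07. The others were inaE, Sarm, Srrm234 and CG42336, with differences of 1.08 to 1.35 on the male-high side and -1.27 to -1.90 on the female-high side. exu, an RNA localisation gene of both germlines named after its values were seen, had a probe set that was similar (0.16 ± 0.41) and another, 1633180_at, that was male-high by 7.0.

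**Figure D3:**
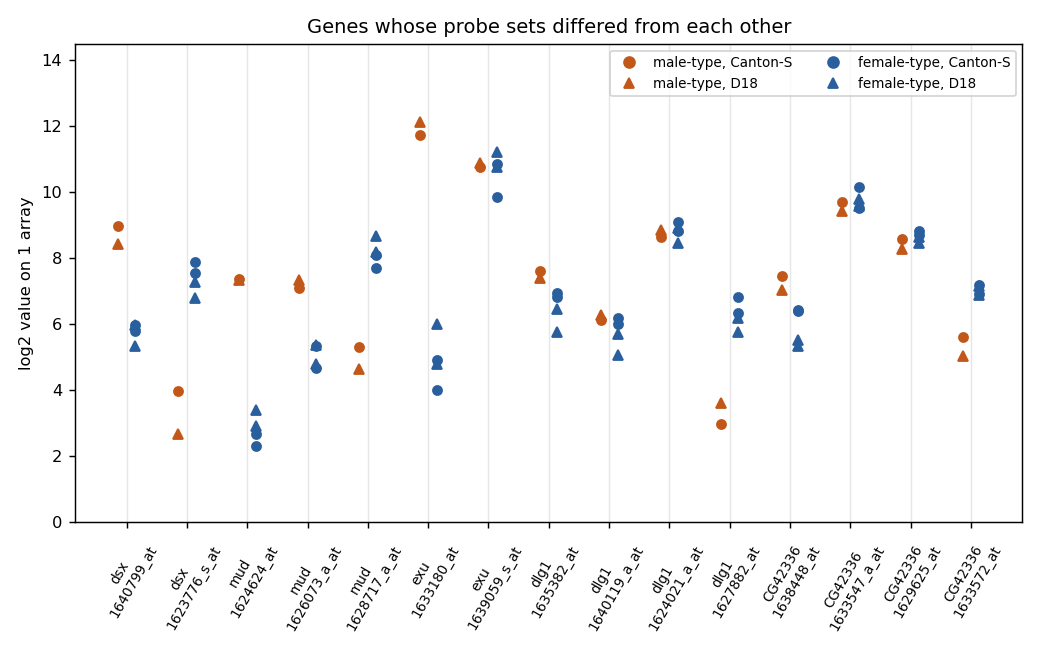
Log2 value on each of the 6 arrays (male-type in orange, left; female-type in blue, right; circles Canton-S, triangles D18) for each probe set of dsx, mud, exu, dlg1 and CG42336. The male-high dsx probe set lies at 8.44 and 8.97 on the male-type arrays and the female-high one at 2.68 and 3.98.

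Of 11 measured genes listed as sex-biased in fat body and oenocytes, 2 were male-high and 3 female-high, beside 18.2% and 22.2% of all genes. In the list, 8 genes were higher and 3 lower on the male-type arrays. The median was 0.74, or 0.271 with every array set to the same median. The widest positive difference was 3.51, for Qsox2, and the female-high genes were far apart between the kinds. Fad2, a desaturase for female pheromones, had 2.91 and 2.69 on the male-type arrays, against 10.05, 10.08, 9.65 and 10.75 on the female-type arrays, a difference of -7.33 ± 0.40. eloF, an elongase of the same pathway, had 3.88 and 2.97 on the male-type arrays, against 9.98, 9.65, 9.08 and 10.13 on the female-type arrays. fit, a female-biased fat body gene of the head, had 5.27 and 2.98 on the male-type arrays, against 9.96, 10.40, 10.97 and 9.98 on the female-type arrays. Desat1, the desaturase that both sexes use, was similar, with 12.16 and 11.72 on the male-type arrays and 11.91, 11.77, 11.35 and 11.98 on the female-type arrays. Cyp4d21, a male-biased cytochrome of the fat body, had 8.45 and 4.41 on the male-type arrays, against 3.51, 4.55, 2.68 and 2.07 on the female-type arrays, and overlapped through the D18 array.

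In the spermatheca, the sperm store of the female, 2 of 4 measured genes (proteases Send1 and Send2) were female-high, beside 22.2% of all genes. The other two, Hr39 and Fer1HCH, differed by -0.93 ± 0.16 and 0.07 ± 0.09. Send1 had 2.57 and 2.38 on the male-type arrays, against 9.76, 10.27, 7.07 and 6.05 on the female-type arrays, so the female-type Canton-S arrays lay above the female-type D18 arrays. Chemosensory genes of courtship had low values, with a list median of 3.64 and 3.69 on the male-type and 2.61 to 3.23 on the female-type arrays. Of 9 such genes, 2 were male-high and 1 female-high, beside 18.2% and 22.2% of all genes. The gene lush, an odorant-binding protein for the male pheromone, was male-high. It had 6.90 and 5.95 on the male-type arrays, against 4.77, 5.51, 3.24 and 4.56 on the female-type arrays. Gr32a was male-high by 1.16 ± 0.21 and ppk29 was female-high by -1.22 ± 0.15. The 6 other receptors differed by less than 2-fold.

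Nervous system genes were shifted toward the male-type arrays by small amounts. Of 17 neuronal genes, 10 were male-high and none female-high, beside 18.2% and 22.2% of all genes, with a median of 1.05. futsch, a microtubule-associated protein of axons, had 7.84 and 8.40 on the male-type arrays, against 6.84, 6.64, 5.49 and 6.65 on the female-type arrays. Snap25, of the synaptic vesicle machinery, had 10.23 and 10.74 on the male-type arrays, against 9.39, 8.99, 7.86 and 9.21 on the female-type arrays. D18 replicate 1 was the lowest array for both. Of 11 photoreceptor genes, 5 were male-high, and all 11 were higher on the male-type arrays, with a median of 1.17. trp, the light-activated channel, had 9.66 and 9.60 on the male-type arrays, against 8.89, 8.72, 7.31 and 7.84 on the female-type arrays. The neuron and photoreceptor medians were 0.62 and 0.46 without D18 replicate 2, which leaves the Canton-S difference alone. Without Canton-S replicate 3, which leaves the D18 difference alone, they were 1.68 and 1.84. They were 0.58 and 0.71 with every array set to the same median.

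Muscle genes varied as much within a kind as between the kinds. Of 16 measured genes, 2 were male-high, beside 18.2% of all genes. The median of 0.90 was 0.08 without D18 replicate 2 (Canton-S alone) and 1.75 without Canton-S replicate 3 (D18 alone). Without Canton-S replicate 1 the median was 1.46. It was 0.438 with every array set to the same median. Act88F, the actin of the indirect flight muscle, had 8.78 and 12.51 on the male-type arrays and 12.90, 6.34, 12.07 and 7.82 on the female-type arrays. fln, a flight muscle protein, had 8.18 and 11.94 on the male-type arrays and 12.38, 5.92, 11.39 and 9.13 on the female-type arrays. D18 replicate 2, Canton-S replicate 1 and D18 replicate 1 were the high arrays for both genes, across kinds and strains. Argk1, arginine kinase, was similar, with 12.39 and 12.01 on the male-type arrays and 12.10, 11.95, 11.69 and 11.75 on the female-type arrays.

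Lists of other tissues held similar genes, and some held male-high or female-high ones. Of all genes with a mean level of at least 6, 21.6% were similar. Of all genes, 18.2% were male-high and 22.2% female-high. Of 18 genes of fat body and lipid metabolism, 6 were similar and 1, FASN2, was male-high by 1.38 ± 0.42. Of 11 Malpighian tubule genes none was male-high or female-high and 5 were similar. Of 25 digestive enzyme genes, 6 were female-high, near the 22.2% of all genes, and 6 similar. Their median of -0.15 was -0.611 without D18 replicate 2 (Canton-S alone), -0.525 without D18 replicate 3 and -0.325 without Canton-S replicate 2. It was -0.614 with every array set to the same median. Jon99Fi, a serine protease of the gut, had 9.44 and 10.24 on the male-type arrays, against 11.22, 12.04, 11.60 and 12.44 on the female-type arrays, while alphaTry, a trypsin, differed by 0.25 ± 0.15. The maltases Mal-A7 and Mal-A8 had positive differences of 2.18 and 1.98, and overlapped, since female-type Canton-S values of 11.60 and 10.78 for Mal-A7 stood beside 8.08 and 5.52 in female-type D18.

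The 6 measured antimicrobial peptide genes were all lower on the male-type arrays, and 3 were female-high, beside 22.2% of all genes. Drs, drosomycin, had 9.39 and 9.93 on the male-type arrays, against 11.92, 12.41, 11.59 and 11.74 on the female-type arrays, a difference of -2.26 ± 0.35. Def, defensin, had 6.40 and 7.59 on the male-type arrays, against 10.42, 10.37, 9.22 and 9.54 on the female-type arrays. Mtk, metchnikowin, had 5.31 and 7.85 on the male-type arrays and 7.55, 11.15, 9.54 and 8.43 on the female-type arrays, and so overlapped. The list median of -2.35 was -1.06 without Canton-S replicate 3 (D18 alone) and -3.39 without D18 replicate 2 (Canton-S alone). Among 9 clock genes, 2 were male-high and 2 female-high, near the shares of all genes. Clk and Pdp1 were male-high by 1.49 ± 0.40 and 1.06 ± 0.32, and cyc, the partner of Clk, and the kinase gene dco were female-high by -1.61 ± 0.29 and -1.41 ± 0.18, while per differed by -0.01 ± 0.13.

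The families that follow were chosen by their symbols after the data were seen, and their counts stand beside 18.2% male-high and 22.2% female-high among all genes. All 8 genes of the CCT chaperonin, which folds tubulin and actin, were female-high, by -1.91 to -2.40. Of 20 nucleoporin genes 16 were female-high, of 21 RNA polymerase subunits 17, of 11 Integrator subunits 10, and of 69 mitochondrial ribosomal proteins 25, none of them male-high. Of 31 vacuolar ATPase subunits 12 were male-high, of which Vha68-3 and Vha100-3 differed by 7.03 and 6.27, and 14 were similar. Of 11 tubulin tyrosine ligase-like genes 6 were male-high, by 2.97 to 5.53, and 2 female-high. Of 27 serpins 12 were male-high, up to 9.51 for Spn38F, and 3 female-high. Of 45 odorant-binding proteins 11 were male-high, up to 9.70 for Obp51a, which also stands in the ejaculatory list, and 2 were female-high. Of 80 cytochromes P450 10 were male-high and 8 female-high, and of 20 dpr cell surface genes 9 and 1. Of 5 Tim genes of mitochondrial import 1 was male-high. Of 56 gustatory receptors 1 was male-high, and of 53 ionotropic receptors 2 were female-high. Of 56 odorant receptors none was male-high or female-high, and their median level was 2.24 to 2.28 on the male-type arrays and 2.50 to 2.58 on the female-type arrays, below the lower quartile of the arrays.

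The chromosomes differed in their share of each class. Positions on arms are those of the RefSeq annotation of Release 6. The X chromosome carried 15.7% of measured genes, 12.9% of male-high genes and 21.4% of female-high genes, and its median difference was -0.48. Arm 2L carried 18.5% of measured genes, 22.7% of male-high and 16.6% of female-high genes. The arms 2R, 3L and 3R held 20.5%, 18.9% and 24.4% of male-high genes, against 20.4%, 19.7% and 25.0% of all. Genes of a class lay side by side more often than other genes lay beside them: 49.5% of male-high genes had a male-high neighbour in the gene order, against 27.1% of other genes, 52.7% of female-high genes had a female-high neighbour, against 34.3% of others, and 29.7% of similar genes had a similar neighbour, against 22.9% of others. These shares are descriptions of the array, which measured only some of the genes between neighbours.

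**Figure D4:**
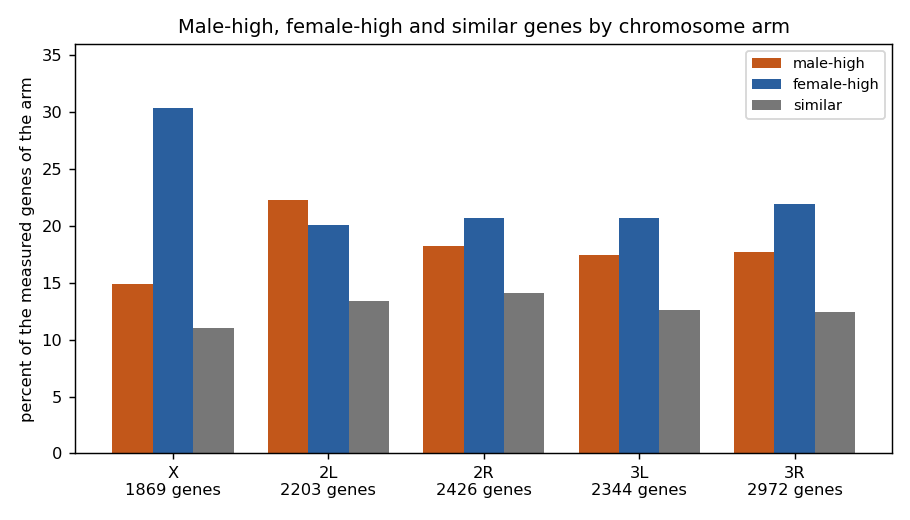
Percent of the measured genes of each major chromosome arm that were male-high (orange), female-high (blue) or similar (grey), with bars from 0 and the number of genes under each arm. On the X, 14.9% were male-high and 30.3% female-high, and arm 2L, where 22.2% were male-high and 20.1% female-high, was the arm with the highest male-high share of these.

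The difference between the kinds was largely shared by the strains, which have no arrays in common. Within Canton-S, 2307 probe sets were at least 2-fold higher on the male-type array, and within D18 3161, with 2134 in both (92.5% of the Canton-S and 67.5% of the D18 set). For lower values, 3130 in Canton-S and 3665 in D18 shared 2568 (82.0% and 70.1%), and 61 probe sets were at least 2-fold in opposite directions. The differences in Canton-S and D18 correlated at r = 0.937 over all probe sets, which is a description, since probe sets are no replicates. The interaction of kind and strain was tested, since the sorting did not use it: limma's moderated test with Benjamini-Hochberg adjustment over 18769 probe sets called 4 (0.0213%) at an adjusted p under 0.05, and 1007 had an unadjusted p under 0.05. The single male-type array of each strain was assumed to vary like the female-type arrays, from which alone the spread was taken. The p therefore compares these 2 male-type arrays and does not measure how male-type pools of a strain vary.

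Each of the 4 calls rests on 1 male-type array, with the female-type arrays at the dim end. CG31816 had 1.42 on the male-type Canton-S array and 9.10 on the male-type D18 array, against 1.73 and 1.59 on the female-type Canton-S and 1.71 and 1.76 on the female-type D18 arrays, and its difference was 7.60 ± 0.32 wider in D18 (limma, adjusted p = 0.0269). CG13946 had 2.51 on the male-type Canton-S and 9.18 on the male-type D18 array, against 2.57, 2.24, 2.35 and 1.98 on the female-type arrays (interaction 6.92 ± 0.41, limma, adjusted p = 0.0455). CG17177 had 2.60 and 7.85 on the male-type arrays, against 1.44, 1.41, 1.22 and 1.18 on the female-type arrays (interaction 5.48 ± 0.31, limma, adjusted p = 0.0455). Probe set 1632140_at, which the annotation does not name, went the other way, with 9.69 on the male-type Canton-S and 1.99 on the male-type D18 array, against 2.46, 2.62, 2.44 and 2.73 on the female-type arrays (interaction -7.74 ± 0.36, limma, adjusted p = 0.0269). The next in order, CG4988 and CG10588, had 4.38 and 4.45 in D18, and -0.20 and -0.04 in Canton-S, at adjusted p of 0.0823 and 0.0886 by limma. Leaving out any single female-type array left 0 calls, and between 788 and 1641 probe sets then had an unadjusted limma p below 0.05.

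**Figure D5:**
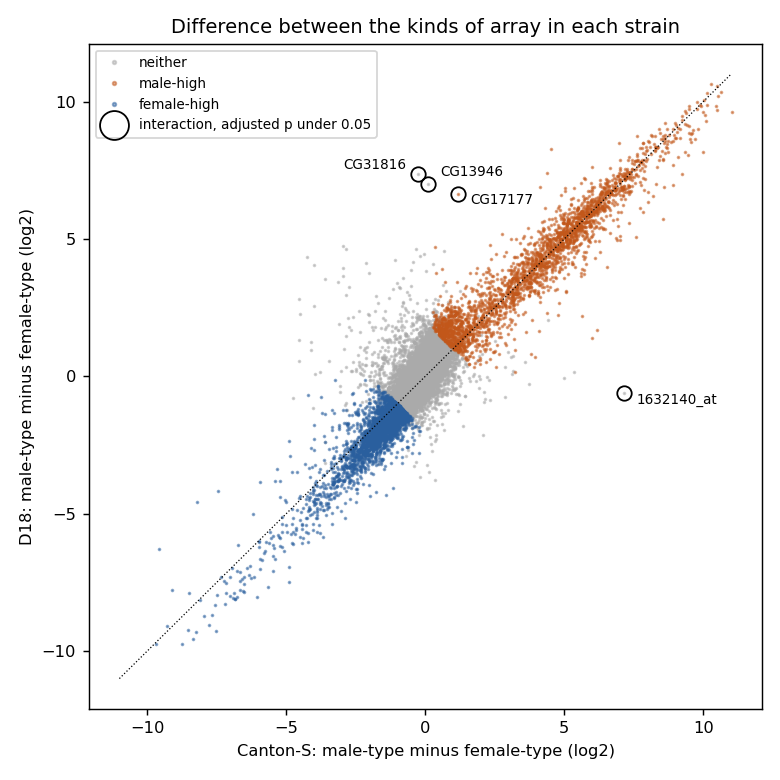
Log2 difference between male-type and female-type arrays within Canton-S (horizontal) and within D18 (vertical) for 18769 probe sets, with male-high in orange, female-high in blue, the dotted line of equal differences and the 4 interaction calls circled. Most probe sets follow the line, while CG31816, CG13946 and CG17177 lie at 6.65 to 7.36 in D18 and 1632140_at at 7.15 in Canton-S.

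Some genes differed more among the arrays of a kind than between the kinds. Among 11982 genes, 202 spanned at least 8-fold among the 4 female-type arrays, and 185 of them were under 8-fold between the kinds. The examples that follow were chosen after their values were seen. Cpr92F, a cuticle protein, had 2.91 and 10.55 on the male-type arrays and 11.13, 2.71, 9.72 and 3.28 on the female-type arrays, a difference of 0.02 between the kinds. Acp65Aa, an adult cuticle protein in spite of its symbol, had 3.53 and 9.71 on the male-type arrays and 11.06, 5.0, 10.26 and 4.66 on the female-type arrays. Lsp2, a larval serum protein, had 4.78 and 8.80 on the male-type arrays and 10.68, 7.98, 10.24 and 4.75 on the female-type arrays. These 3 genes were highest on D18 replicate 2, Canton-S replicate 1 and D18 replicate 1, the arrays that were also high for Act88F and fln. Elovl7 followed the strain on these arrays, with 2.46 on the male-type Canton-S and 9.32 on the male-type D18 array. It had 2.93 and 2.84 on the female-type Canton-S and 9.05 and 8.90 on the female-type D18 arrays. For a gene that the paper names ELOVL, its qRT-PCR found no difference between the strains, unlike its arrays. Whether that gene is Elovl7 was not determined here.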

How the data were processed

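Total RNA of pooled whole adult flies was hybridized to 6 Drosophila Genome 2.0 arrays, 3 of each strain. The deposited log2 values are those of the authors, made with the RMA algorithm (background correction, normalization and summary) in the Transcriptome Analysis Console at default parameters, with no detection calls. They were used as deposited, and 183 AFFX control probe sets were left out. No sample column was unused (0). Array number limits the precision. Of the probe sets, 13647 name 1 gene, 402 several and 4720 none. Current symbols and gene order came from RefSeq Release 6, with 11883 genes placed.

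Differences and their SE were fitted by ordinary least squares in Python 3.11.15 (numpy 2.4.6), with strain as covariate. The interaction of kind and strain and its SE came from limma 3.58.1 (lmFit and eBayes, R 4.3.3), tested two-sided. Python (pandas 2.3.3, matplotlib 3.10.9) was also used for tables and figures. Lists used the probe set with the highest mean per gene. The code was tested on simulated data. The kinds of array, the 30 lists, the pairs and the thresholds were chosen with earlier results of these data known, and the families after them. Named genes were the sorting markers, the widest probe sets, the widest and most even list members, the pairs and the top interactions. Alternatives were quantile normalization, a common median, other thresholds, filters and probe set choices, a replicate block, and each array left out.

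RNA of both strains was extracted together in each repeat, with 1 week between repeats, by the methods. Deviations from the strain means correlated at 0.777, -0.930 and -0.861 between arrays of replicate numbers 1, 2 and 3. Both arrays of number 1 were female-type, while numbers 2 and 3 each held a male-type and a female-type array. These correlations therefore cannot separate the repeat from the kind of array. The labels and methods call the replicates biological repeats. Whether they came from separate cultures is not given in the sources used here. The p-values, all of the interaction, rest only on the spread between these female-type arrays. Sequences of transcripts, promoters and proteins were not analysed here.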

Additional observations from a re-analysis of the deposited data

Results flagged for a closer look

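The interaction of kind and strain was past an adjusted p of 0.05 by limma for 4 probe sets (values in log2, D18 difference minus Canton-S difference). It was 7.60 for CG31816, 6.92 for CG13946 and 5.48 for CG17177, and -7.74 for the unnamed 1632140_at. Each rests on 1 male-type array of a strain, and the spread was taken from the female-type arrays alone.

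Among the gene lists, 30 were checked for a female-type array far from the other 3 by Dixon's criterion. The vitelline membrane list met this, with a median of 8.82 on Canton-S replicate 1, below the range of the other female-type arrays. Chance flags about 1 in 20 groups.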

How the results depend on the processing

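Counts of male-high and female-high probe sets stayed within 1.5 times under quantile normalization, the replicate block and each array left out. The replicate block gave 2407 male-high, 3242 female-high and 2702 similar probe sets. Its similar count used a single adjusted difference under 0.5 and not the difference within each strain, so it is not comparable with 1850. With arrays shifted to a common median, 6145 were female-high and 1138 similar. At a 4-fold limit 1020 were female-high and 1794 male-high. The similar probe sets were 1192 among those that match 1 transcript, 582 at a limit of 0.25, and 1617 to 3225 with arrays left out. The count was highest without D18 replicate 2. Without a male-type array, the similar limit applied within the other strain alone, a looser rule. Calls of the type by strain interaction were 0 without the 40% lowest probe sets (593 at an unadjusted limma p under 0.05), a filter that leaves out all 4 called probe sets, 28 with an intensity trend (4 shared), and 0 with each female-type array left out. With a male-type array left out, its strain has no difference to test, and differences and list medians are those of the other strain alone. The replicate block turned no direction but that of the fat body median below.

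Medians near 0 changed sign. The respiratory chain median was -0.403 with a common median and -0.167 to 0.285 with arrays left out. The fat body and lipid median of -0.04 was 0.0919 with the replicate block and lay between -0.0755 and 0.178 with arrays left out. dsx was -0.56 as the mean over its probe sets, whose directions oppose. The cause of other changes was not tested. Of the values recomputed, 4100 kept within their spread or call, 780 moved by more and 10 changed direction. Dim values and 2 male-type arrays limit what these arrays resolve.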
